A study of Mus musculus with 31 samples.

Results

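The 10 genes described here encode the DNA-binding subunits of NF-κB and proteins that bind or restrain them. They are Nfkb1, Nfkb2, Rela, Relb and Rel (the subunits), Nfkbia, Nfkbib and Nfkbie (the IκB inhibitors), Tnfaip3 (the deubiquitinase A20) and Bcl3 (a nuclear IκB protein). They were taken as a list of named genes, 10 of the 21938 protein-coding genes of the mouse annotation (GENCODE M21), and the accessible chromatin at each of them is described. The measurement was ATAC-seq, in which the transposase Tn5 cuts and tags DNA that nucleosomes leave free. It was made once, in 50000 cells of the parental NIH-3T3 line with 0.5 µM Tn5 and, by the labels, 12 cycles of PCR. NIH-3T3 is an established line of mouse fibroblasts. The parental cells carry no transgene, and the labels list no doxycycline for them, whereas the methods give doxycycline for NIH-3T3 cells in general. The other 30 samples of the series, with 13 transcription factors (TFs) or rtTA3G alone, were not analysed here. With 1 library there is no replicate, so every value below describes that library and no test was made.

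NF-κB is a family of dimeric TFs that in resting cells are held in the cytoplasm by IκB proteins. Signals from TNF, interleukin-1 and Toll-like receptors activate kinases that mark IκB for destruction, and the freed dimers enter the nucleus and bind κB sites. Several genes of the family, among them Nfkb1, Nfkb2, Relb, Rel, Nfkbia and Tnfaip3, are textbook targets of NF-κB themselves, which closes feedback loops of induction and shut-off.

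The list of accessible regions (peaks) held 63456 intervals on mm10. Each peak has a fold enrichment, the number of fragments over its summit divided by the number expected from the surroundings, each with 1 added, and a −log10 q, which also grows with the number of fragments. Solving the fold and the −log10 p for the fragments gave a whole number, within 0.02, at all 55 peaks of the 10 genes. These summits lay under 12 to 103 fragments with a median of 38, against a median of 29 for all peaks. Intervals given with a fold are 95% exact Poisson intervals of the fragments and cover counting error only.

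Sequences that fit the κB consensus were found in the promoter peaks of 9 of the 10 genes, and these are printed first because the rest of the description returns to them. The consensus used reads 3 G, a purine, any 2 bases, 2 pyrimidines and 2 C, and a stricter form fixes all but 1 base (3 G, A, any base, 3 T, 2 C). Both strands were searched, overlapping matches were joined into 1 site, and capitals mark the match. A match describes the letters of the reference sequence (GRCm38.p6, the same build as mm10) and does not show that a protein was bound. The first set gives 8 sites with their neighbouring bases, each 5′ to 3′ on the strand of the gene.
Nfkb1, stricter form, chr3:135691497-135691526, - strand: cgacgtcagtGGGAATTTCCagccaggaag
Nfkb2, first promoter peak, chr19:46304689-46304718, + strand: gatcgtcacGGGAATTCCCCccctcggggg
Nfkb2, second promoter peak, stricter form, chr19:46305695-46305724, + strand: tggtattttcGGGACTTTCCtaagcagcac
Rela, edge of the promoter peak, chr19:5637888-5637917, + strand: ggcctgcggcGGAATCTCCCccctccccgc
Relb, near the 5′ start, chr7:19629443-19629472, - strand: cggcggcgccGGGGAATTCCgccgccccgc
Relb, farther upstream, chr7:19629516-19629545, - strand: gtgagcagcgGGGGTTTTCCcattcccttt
Nfkbia, stricter form inside the gene, chr12:55491947-55491976, - strand: ggtggggcacGGAAAGTCCCtgggcggctg
Nfkbib, at an annotated start, chr7:28766497-28766526, - strand: ggggcgtgttGGGGAATTCCCgatagggcg
The palindromic core shared by the Nfkb2, Relb and Nfkbib sites and the stricter sites of Nfkb1, Nfkb2 and Nfkbia can be read directly from these lines.

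RefSeq gave promoters for 8 of the 10 genes, and 5 of these genes had a κB consensus match upstream of a start (Nfkb2, Rel, Nfkbia, Nfkbie and Tnfaip3). Their upstream sequence, outside annotated untranslated regions and at most 250 bases long, is shown because each holds a match inside a peak. The earlier Nfkb2 promoter overlaps annotated untranslated regions and is represented only by a site above.
Nfkb2, chr19:46305445-46305694, + strand: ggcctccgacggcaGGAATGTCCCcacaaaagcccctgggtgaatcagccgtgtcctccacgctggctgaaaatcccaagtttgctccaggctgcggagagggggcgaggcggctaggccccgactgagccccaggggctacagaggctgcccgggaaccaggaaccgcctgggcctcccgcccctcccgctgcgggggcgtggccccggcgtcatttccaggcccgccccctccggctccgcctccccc
Rel, chr11:23770971-23771219, - strand: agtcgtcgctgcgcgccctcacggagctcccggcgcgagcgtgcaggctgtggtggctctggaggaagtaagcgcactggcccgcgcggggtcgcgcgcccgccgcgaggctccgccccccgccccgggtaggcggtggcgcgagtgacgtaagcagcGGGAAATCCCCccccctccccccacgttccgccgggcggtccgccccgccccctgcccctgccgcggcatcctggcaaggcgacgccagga
Nfkbia, chr12:55492648-55492897, - strand: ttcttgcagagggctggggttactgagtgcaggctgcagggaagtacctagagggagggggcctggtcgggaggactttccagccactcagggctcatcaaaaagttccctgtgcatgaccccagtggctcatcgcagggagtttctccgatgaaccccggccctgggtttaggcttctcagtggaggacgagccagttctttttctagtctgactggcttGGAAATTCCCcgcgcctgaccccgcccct
Nfkbie, chr17:45555450-45555699, + strand: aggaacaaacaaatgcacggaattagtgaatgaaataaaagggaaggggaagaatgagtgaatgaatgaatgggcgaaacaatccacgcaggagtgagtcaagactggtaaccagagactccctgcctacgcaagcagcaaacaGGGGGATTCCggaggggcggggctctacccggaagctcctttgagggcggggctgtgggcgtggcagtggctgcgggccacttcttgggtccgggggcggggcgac
Tnfaip3, chr10:19015411-19015547, - strand: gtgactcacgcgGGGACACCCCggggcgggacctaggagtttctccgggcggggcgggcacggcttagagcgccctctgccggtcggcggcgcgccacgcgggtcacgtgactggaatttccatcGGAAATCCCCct
Counted from the RefSeq start, the first capital stood at -236 in Nfkb2, -92 in Rel, -29 in Nfkbia and -106 in Nfkbie, and at -125 and -12 in Tnfaip3. All 5 start sites lay inside a peak. Within the 250 bases before the start, 7 of the 11 RefSeq promoters of the 8 genes held the consensus, compared with 7.25% of all 32851 RefSeq promoters. The stricter form was in 2 of the 11 and in 0.356% of all. The members' promoters were also rich in CpG, here taken from 250 bases before to 50 after the start. Their observed to expected ratio was 0.367 to 0.996 (median 0.734), against a median of 0.384 over all promoters. Their GC content in the same stretch was 47 to 75%, against a median of 52.7% over all promoters. The shares with a match were not compared at like GC content.

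All 10 genes had a peak within 1 kb of an annotated transcription start site (TSS), where 53.7% of coding genes did. There were 13 such promoter peaks, 1 each for 8 genes, 2 for Nfkb2 and 3 for Nfkb1. A further 9 peaks lay in the bodies of 4 genes (34.3% of coding genes had a body peak), and 33 lay within 25 kb of 9 genes (71.4% of coding genes had such a flank peak). The 10 genes had more annotated starts to hit than most, with a median of 5.5 a gene against 3. Of their 49 starts, 26 lay inside a peak (53.1%), compared with 37.3% of the 93513 starts of coding genes. The map of the 55 peaks along each gene shows that they were unevenly shared, from 2 peaks at Rela and at Rel to 12 at Nfkb1.

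**Figure D1:**
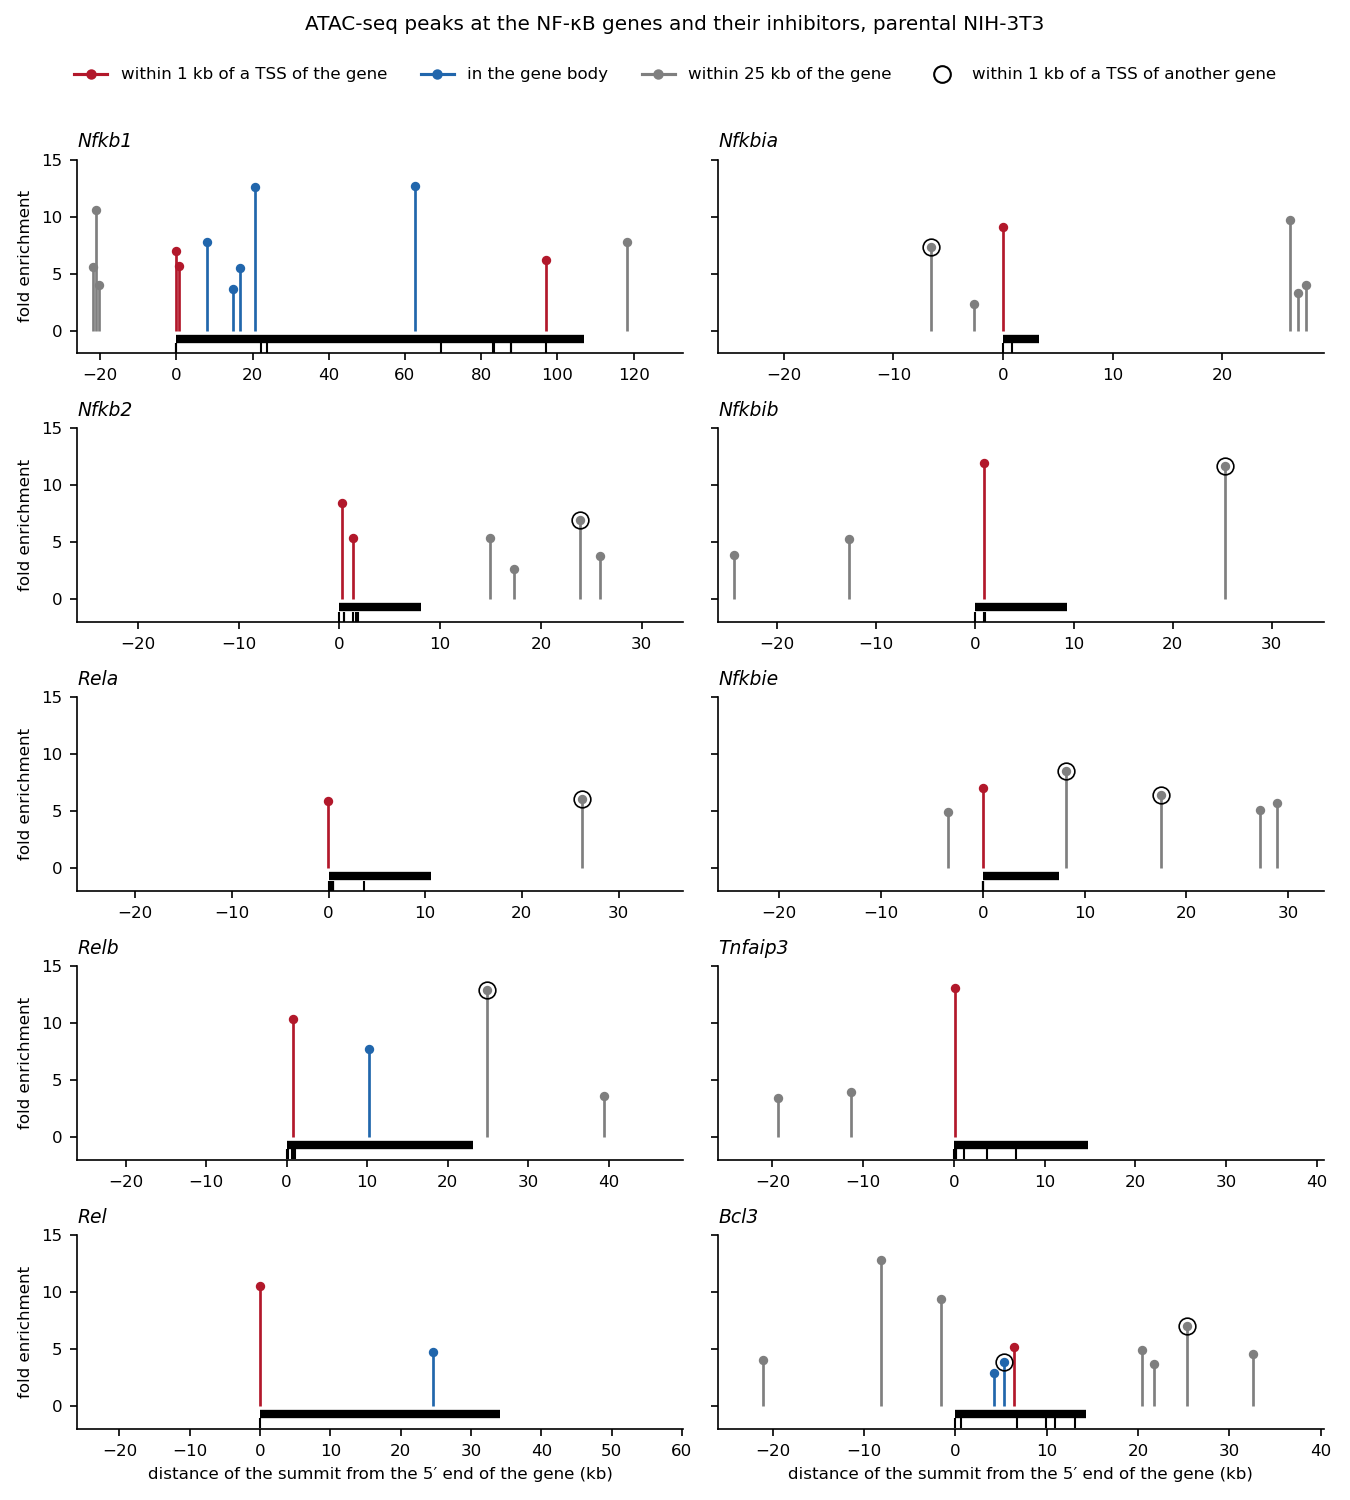
Fold enrichment of each of the 55 peaks (vertical axis) against the distance of its summit from the 5′ end of the gene in kb, positive in the direction of transcription, with 1 panel per gene. Black bars are the genes, ticks below them annotated TSSs, and circled points lie within 1 kb of a TSS of another gene; Nfkb1 had 12 peaks and Bcl3 10, whereas Rela and Rel had 2 each.

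Ranked by the fold of their strongest promoter peak, the inhibitor genes Tnfaip3 and Nfkbib stood at the top of the 10 genes, and Rela and Bcl3 at the bottom. By −log10 q, Rel (59.7) and Relb (59.6) stood above Tnfaip3 (52.4) and Nfkbib (50.2). Tnfaip3 had a fold of 13.1 (10.2 to 16.5) and Nfkbib 12.0 (9.36 to 15.2), followed by Rel at 10.6 (8.53 to 12.98) and Relb at 10.4 (8.39 to 12.7). Nfkbia at 9.08 (7.18 to 11.3) and Nfkb2 at 8.49 (6.81 to 10.5) were in the middle, and Nfkbie at 7.04 (5.29 to 9.19) and Nfkb1 at 6.998 (5.09 to 9.40) came next. Rela reached 5.94 (4.30 to 8.004) and Bcl3 5.21 (3.72 to 7.10). Each neighbouring pair in this order had overlapping intervals, so neighbours were not told apart by counting error. Only wider steps were clear of it: the interval of Tnfaip3 lay above those of Nfkbie, Nfkb1, Rela and Bcl3, that of Nfkbib above Nfkbie, Rela and Bcl3, those of Rel and Relb above Rela and Bcl3, and that of Nfkbia above Bcl3.

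As a group the promoters were not unusually accessible by fold. Their median was 8.78, compared with 9.86 (quartiles 7.27 and 12.4) for the 11788 coding genes with a promoter peak, and 4 of the 10 were above that median. By the counting intervals only Tnfaip3 lay wholly above it, and Nfkbie, Nfkb1, Rela and Bcl3 lay wholly below it. By −log10 q their median was 47.4 against 42.0, and 6 of the 10 were above. The plot of ranks spreads the 10 genes from the 10.2th to the 80.4th percentile.

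**Figure D2:**
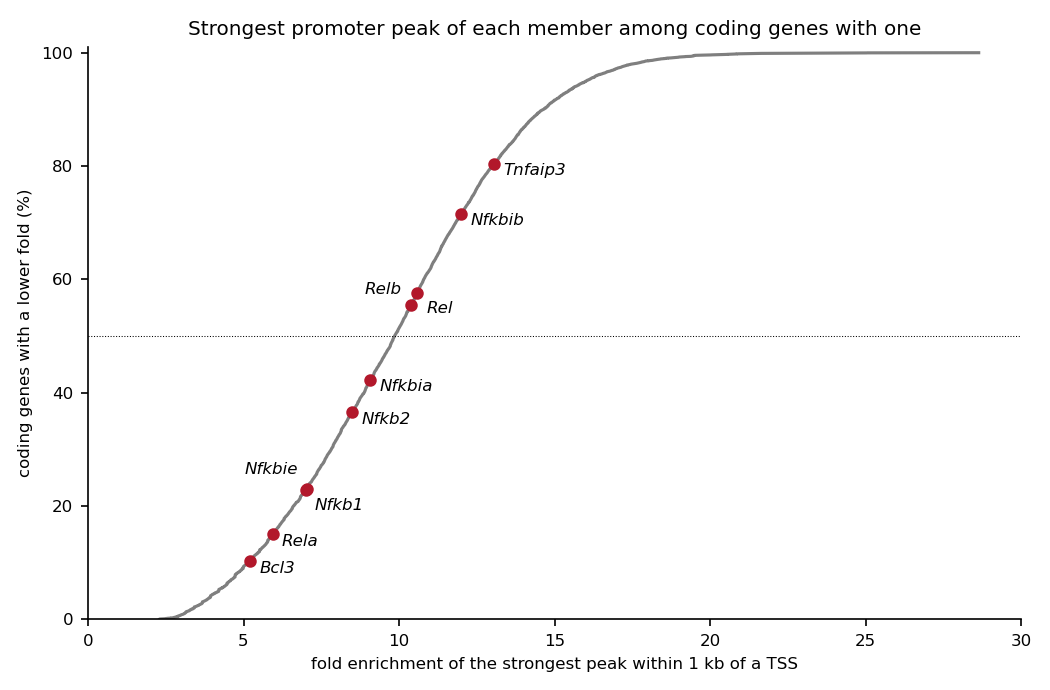
Cumulative share of coding genes (vertical axis, %) by the fold enrichment of their strongest promoter peak (horizontal axis), with the 10 genes as red points. Tnfaip3 and Nfkbib lie above 70%, Relb and Rel between 50 and 60%, and the other 6 below the dotted line at 50%.

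Among the subunit genes, Nfkb1 encodes p105, the precursor of p50, and spans 106893 bp of chromosome 3. Its 5′ peak, chr3:135691305-135692234, covered 2 of its 10 annotated starts, those at the 5′ end, with 42 fragments over 5.14 expected and its summit upstream of the gene. A second peak in intron 1 (chr3:135690690-135691152, fold 5.67) lay 394 bp from a start, and another in intron 18 (chr3:135594335-135594824, fold 6.15) covered the start of a non-coding transcript inside the gene. The 3 promoter peaks were thus all modest, between 28 and 42 fragments. The stronger signal of Nfkb1 was inside the gene and upstream of it. The peak in intron 6, chr3:135628754-135629193, had a fold of 12.7 (9.86 to 16.2) from 65 fragments, and one in intron 1, chr3:135670777-135671303, had 12.6 (10.1 to 15.5) from 85 fragments. The intervals of both lay above that of the 5′ peak. Neither held a κB consensus match. Upstream, a group of 3 peaks began 20218 bp before the gene, the strongest of which (chr3:135712253-135713012) had a fold of 10.6 from 75 fragments.

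Nfkb2 encodes p100, the precursor of p52 and the inhibitor of the non-canonical branch. It had 2 promoter peaks on chromosome 19 that together covered 5 of its 6 annotated starts. The first, chr19:46304235-46304964, had 86 fragments over 9.25 expected (−log10 q 48.9), and the second, chr19:46305359-46306077, had 56 over 9.50 and a fold of 5.43. Both also lay within 1 kb of a start of AC114539.1, and the signal of the 2 genes cannot be told apart. Its rank depended on the measure, at the 36.5th percentile by fold and the 58.8th by −log10 q. The expected number of fragments here was the highest among the 10 strongest promoter peaks. The strongest flank peak, chr19:46328062-46328900 (fold 6.98), lay 15677 bp downstream at the starts of Psd and Fbxl15.

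Rela encodes p65, the main transactivating subunit of the canonical pathway. Its promoter peak, chr19:5637147-5637908, had 41 fragments over 6.07 expected and a −log10 q of 18.2, and covered 3 of the 7 annotated starts. The only other peak within 25 kb, chr19:5662977-5663879 with a fold of 6.13, lay 14847 bp downstream at a start of Sipa1. Rela therefore had no peak away from a TSS within 25 kb, and its promoter stood at the 14.96th percentile by fold.

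Relb and Rel encode the remaining 2 subunits, RelB of the non-canonical pathway and c-Rel, best known from lymphocytes. Their promoter peaks had the highest −log10 q of the 10 genes. The Relb peak, chr7:19628383-19629604, had 91 fragments over 7.85 and covered all 5 annotated starts, with its summit in intron 1. The Rel peak, chr11:23770291-23771705, had 90 fragments over 7.60 and was the widest of the 13 at 1415 bp, with its summit 3 bp from the single annotated start. The pair were alike in fold and in fragments. They differed in surroundings. Relb had a body peak in intron 3 (chr7:19619079-19619308, fold 7.74) and, 1448 bp beyond its 3′ end, a peak of fold 12.9 at a start of Clasrp (chr7:19604099-19604769). Rel had only a weak peak in intron 5 (chr11:23746291-23746446, fold 4.73, 17 fragments) and no peak in either flank, and the nearest one outside lay 56147 bp from the gene.

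**Figure D3:**
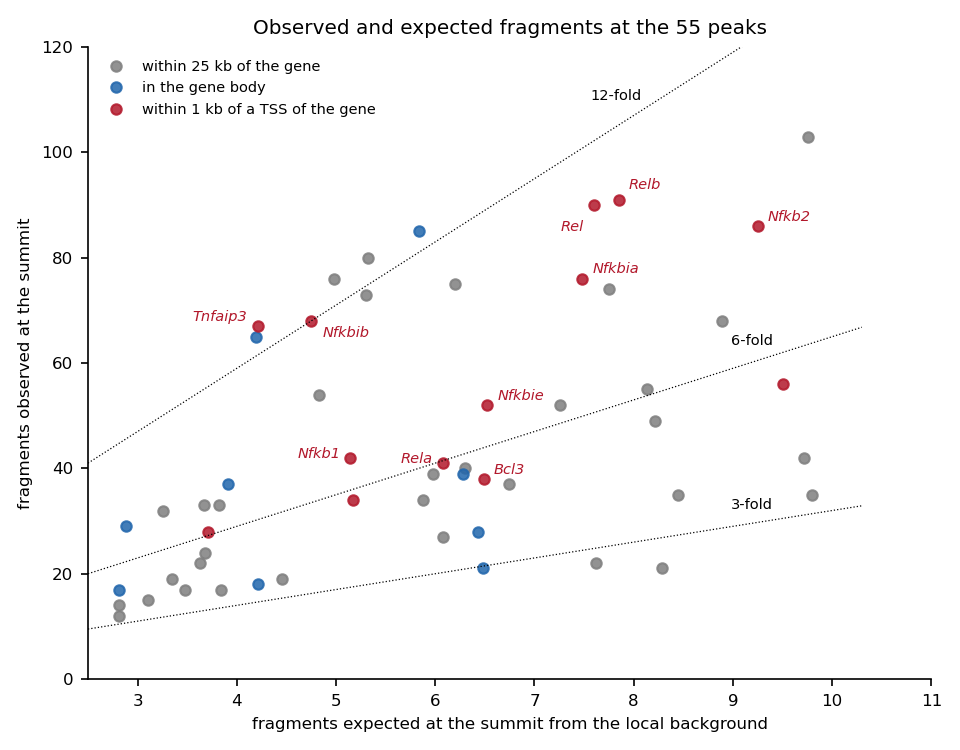
Fragments observed at the summit (vertical axis) against fragments expected from the local background (horizontal axis) for the 55 peaks, coloured by class, with the strongest promoter peak of each gene named. Dotted lines mark equal fold enrichment of 3, 6 and 12; Rel and Relb reach 90 and 91 fragments over a higher background than Tnfaip3 and Nfkbib, which have 67 and 68.

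The 3 cytoplasmic inhibitors each had 1 promoter peak. Nfkbia encodes IκBα, the rapidly resynthesised inhibitor of the canonical pathway. Its peak, chr12:55491845-55492885, had 76 fragments over 7.48 expected, with the summit in exon 1, 21 bp from the start. The strongest other peak, chr12:55466211-55467125, lay 22285 bp past the gene and had 103 fragments, the most of all 55 peaks, with a fold of 9.66 and a −log10 q of 63.7. It held 2 AP-1 consensus matches and no κB consensus match. The flank peak nearest to the gene, 2574 bp upstream, was the weakest of the 55 by fold (2.37, 21 fragments).

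Nfkbib, which encodes IκBβ, had a promoter peak at chr7:28766254-28766844 of 68 fragments over 4.75 expected. The peak covered 2 of its 3 starts and lay within 1 kb of a start of Sirt2, which is transcribed the other way, so that the share of either gene in the signal cannot be told apart. Its strongest flank peak (chr7:28741607-28742565, fold 11.7) was likewise at other genes, Mrps12 and Sars2. Nfkbie encodes IκBε, and its peak, chr17:45555505-45556082, had 52 fragments over 6.53 and covered all 3 starts. It was weaker by fold than the peak of its neighbour Slc35b2, 530 bp past the 3′ end of Nfkbie (chr17:45563699-45564508, fold 8.57, 74 fragments), although the 2 intervals overlapped. A peak at Hsp90ab1, 9273 bp downstream, was the widest of the 55 at 1913 bp, with a fold of 6.42.

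Tnfaip3 encodes A20, which edits ubiquitin chains and ends signalling upstream of the kinases. Its promoter peak, chr10:19014996-19015852, had 67 fragments over only 4.21 expected and covered 3 of the 6 annotated starts. The other peaks of the locus were weak. No peak lay in the gene body, and the flank peaks, 11187 and 19340 bp upstream, had folds of 3.94 and 3.41 from 14 and 12 fragments.

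Bcl3 encodes a nuclear IκB protein that binds p50 and p52 homodimers, and it was the exception among the 10. Its promoter peak, chr7:19816136-19816726, lay in intron 2, 140 bp from the start of a non-coding transcript and also within 1 kb of a start of Gm16174, with 38 fragments over 6.49. The start of its only coding transcript in the basic set had no peak within 1 kb. The nearest peak to that start, chr7:19823869-19824647, lay just beyond the limit at 1099 bp upstream, with a fold of 9.43 and 54 fragments. A stronger one, chr7:19830610-19831333, lay 7840 bp upstream with a fold of 12.8 (−log10 q 60.6, 80 fragments). When a peak had to overlap a TSS, or when only basic coding transcripts were used, Bcl3 dropped out and 9 of the 10 genes kept a promoter peak. With 7 flank peaks, Bcl3 had the most of the 10 genes, 6 of them away from any TSS.

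At the limits of the definitions, Nfkb1 had a promoter peak 394 bp from a start and its next peak 1438 bp away, and Bcl3 had them at 140 and 1099 bp. At 25 kb the closest cases were Nfkbia, with a peak of fold 4.01 at 24193 bp inside and one of 2.31 at 25109 bp outside, and Nfkbib, with a peak of fold 3.89 at 24341 bp inside. The flanks of the 10 genes held a median of 3.5 peaks a gene, compared with 2 for coding genes, and 8 of the 33 lay at a TSS of another gene. Gene bodies held 0.388 peaks per 10 kb against 0.220, and 5 of the 9 body peaks were those of Nfkb1. Both comparisons are with all coding genes, of which 53.7% had a promoter peak, whereas all 10 of these genes had one. A comparison with only the coding genes that had a promoter peak was not made. Among the 47192 peaks away from any TSS, the 33 of these genes ranked from percentile 0.121 to 93.7 by fold with a median of 39.3, and 11 of the 33 were above the median of all such peaks. Their median fold was 4.91 against 5.54. The highest were the flank peak of Bcl3 at 7840 bp, at percentile 93.7, and the peaks of Nfkb1 in introns 6 and 1, at percentiles 93.5 and 93.2.

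κB consensus matches were frequent in the promoter peaks of these genes and rare in their distal peaks. Over all 55 peaks, 17 had a match (30.9%), against 9.97% of the whole list. Matches were in 11 of the 13 promoter peaks (84.6%), compared with 21.6% of the 16264 peaks within 1 kb of any TSS. Counted by gene, 9 of the 10 had a match in a promoter peak, and 30.2% of the coding genes with a promoter peak did. The promoter peaks of the 10 genes were wider than most (median 730 against 629 bp), and longer peaks hold more matches by length alone. Among the 9770 TSS peaks of 463 to 1415 bp, the range of the members' widths, 27.9% had a match. Within 150 bp to either side of the summit, a window of fixed length, 8 of 13 had one (61.5%) against 9.92%, and within 50 bp 2 of 13 (15.4%) against 3.02%. The stricter form was in 3 of the 13, at Nfkb1, Nfkb2 and Nfkbia, and in 0.953% of all TSS peaks.

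The 17 joined sites of the promoter peaks lay 14 to 870 bp from the summit with a median of 115 bp, and 15 of them were within 250 bp of a start. These peaks were chosen for lying within 1 kb of a start. The share of their bases within 250 bp of one was not computed, so the 15 have no background. In the sequences above, the closest to its summit was the upstream match of Tnfaip3, 14 bp away, and the Nfkbia match near the start was 45 bp away. At Relb both sites lay close to the 5′ start, 19 and 92 bp upstream of it, but 797 and 870 bp from the summit, which lay inside the gene. The match of Rela sat at the edge of its peak, 439 bp from the summit. The second stricter site of Nfkbia was 665 bp from the summit, inside the gene. The drawing of the promoter peaks shows these positions.

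**Figure D4:**
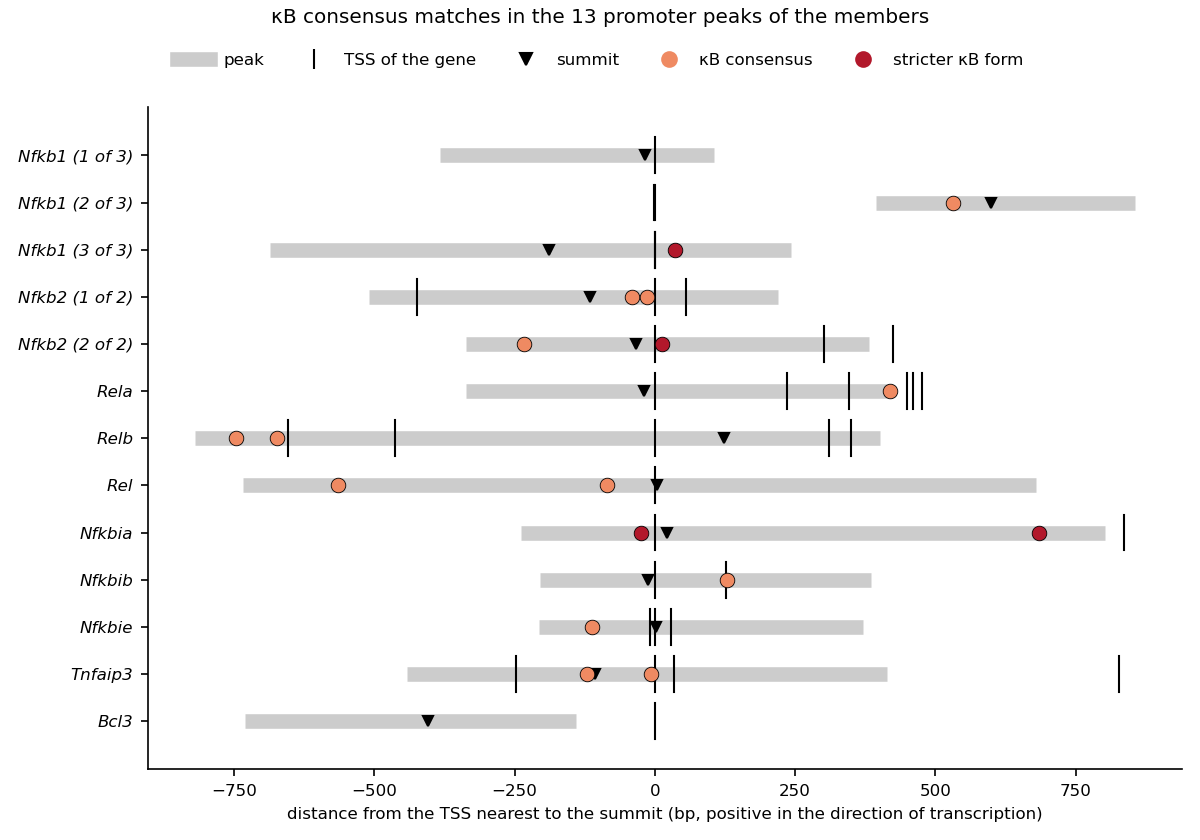
Positions of the 17 κB consensus sites (circles, darker for the stricter form) in the 13 promoter peaks (grey bars), in bp from the TSS nearest to the summit, with triangles for summits and vertical lines for TSSs of the gene. Peaks of Nfkb1 and Nfkb2 are numbered by chromosome position, so peak 3 of Nfkb1 is at its 5′ end. The peak of Bcl3 and peak 1 of Nfkb1 hold no site. Most sites lie within 250 bp of a TSS, in peaks chosen for lying within 1 kb of one.

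Away from any TSS, 2 of the 33 peaks of these genes had a κB consensus match (6.06%), and 5.95% of all such peaks did, so the share in whole peaks was that of the background. Within 150 bp to either side of the summit, 3 of 33 had one (9.09%) against 5.12%. Both matches in whole peaks were in flank peaks of Bcl3. A body peak of Bcl3 in intron 2 (chr7:19817232-19818007, fold 3.91) also held a match, 217 bp from its summit. It is not counted here because it lay within 1 kb of a start of Gm16174. Of the 2 flank peaks, one lay 1099 bp upstream of the start of Bcl3, with the match 20 bp from the summit. The window of 50 bp to either side of that summit is shown because it is the single distal summit of the 10 genes with a match, and because this gene had none in its promoter peak.
Bcl3, chr7:19824290-19824390, + strand: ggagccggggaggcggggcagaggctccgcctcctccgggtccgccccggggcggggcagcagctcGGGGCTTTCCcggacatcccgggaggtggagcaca
The other window with a match near the summit outside the promoter peaks belonged to the flank peak of Nfkbie at a start of Slc35b2, where the match was 8 bp from the summit.
Nfkbie, at Slc35b2, chr17:45563819-45563848, + strand: agtcccaactGGAGTTCCCCaggggaaccg
The AP-1 consensus TGACTCA, bound by Fos and Jun dimers, was in 16 of the 55 peaks (29.1%) and in 34.9% of the whole list, and among distal peaks in 11 of 33 (33.3%) and in 40.8% of all. Among the promoter peaks 4 of 13 (30.8%) had it in the whole peak, at Nfkb2, Rel, Nfkbie and Tnfaip3, against 17.6% of all TSS peaks. In windows of fixed length this excess was absent. Within 150 bp to either side of the summit 1 of 13 had it (7.69%) against 13.02%, and within 50 bp 1 of 13 (7.69%) against 8.15%. In whole peaks the GC box GGGCGG was in 11 of the 13, compared with 61.5%. The TSS peaks of these genes had a median GC content of 63.1% against 59.3%.

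The remaining genes of the pathway were taken as 4 lists by textbook role. Of the receptors and adaptors, 20 of 23 had a promoter peak, with a median strongest fold of 10.9. The highest were Traf2 (14.8), an adaptor of TNF receptors, and Ripk1 (14.1), the kinase recruited with it, and Tlr5, Tlr9 and Cd40 had none. Of the kinases and the ubiquitin machinery of the pathway, all 17 had one, with a median of 11.4. The highest were Ikbkg (16.5), the regulatory subunit NEMO of the IκB kinase, and Tab3 (15.6), a partner of the kinase TAK1. Other inhibitors had one in 13 of 14 cases, with a median of 10.9, led by the deubiquitinases Cyld (13.3) and Otulin (12.7), and Tnip3 had none. These 3 lists were above the 53.7% of coding genes and above the median fold of 9.86, without matching for the number of annotated starts.

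Inducible targets of NF-κB had a promoter peak less often than the machinery. A peak was present at 13 of 24 (54.2%), close to the share of coding genes, with a median fold of 8.04. The lists were not matched for annotated starts, and more starts give more chances of a peak and of a high fold. Targets had from 1 start (Il1a) to 12 (Cflar), and kinases and ubiquitin genes from 2 (Tab1) to 16 (Ikbkg). Whether the difference between the lists holds at like numbers of starts was not tested. Sod2 (14.8), a mitochondrial superoxide dismutase, and Cxcl10 (14.3), a chemokine, were highest, whereas the cytokine genes Tnf, Il1a and Il1b and the endothelial selectin Sele were among the 11 without one. Where a target had a promoter peak, it often held a κB consensus match, in 10 of 13 genes (76.9%). The lists of machinery had a match in 6 of 20 receptors and adaptors (30.0%), 7 of 17 kinases and ubiquitin genes (41.2%) and 5 of 13 other inhibitors (38.5%), beside 30.2% of coding genes with a promoter peak and 9 of the 10 NF-κB genes and inhibitors.

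**Figure D5:**
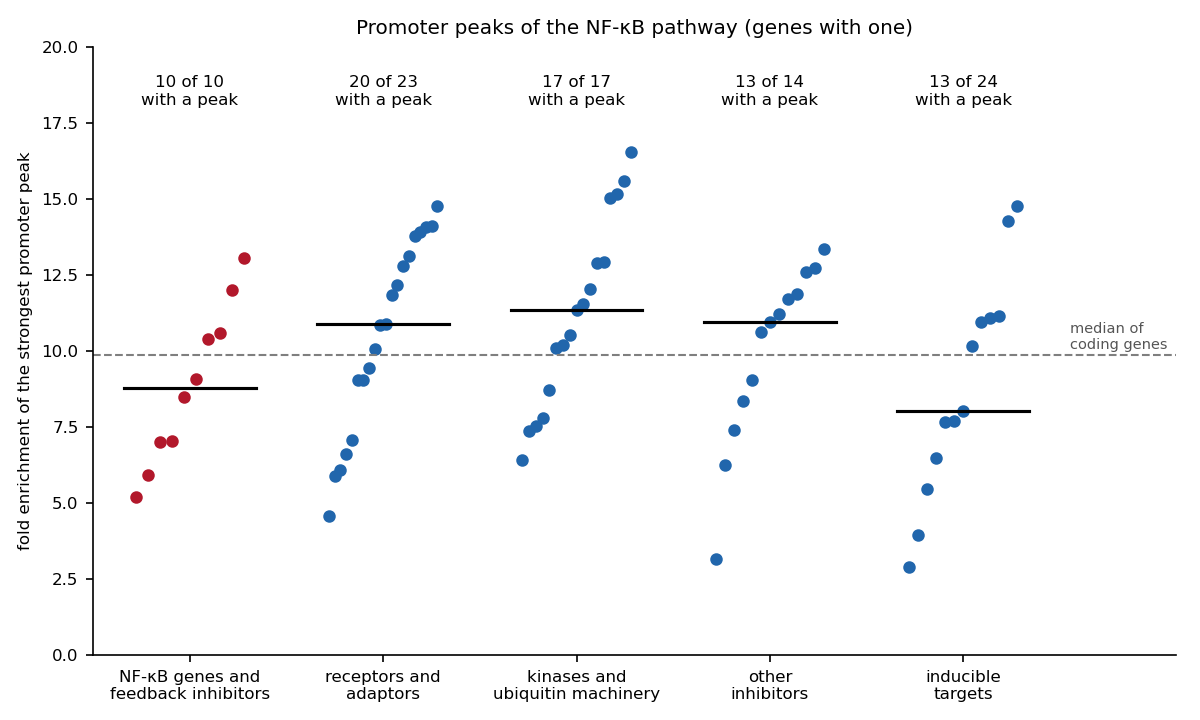
Fold enrichment of the strongest promoter peak (vertical axis) for each gene with one, in the 10 NF-κB genes and inhibitors (red) and in 4 further lists of the pathway (blue), with list medians as black bars. The dashed line is the median of coding genes with a promoter peak, 9.86; the medians of the 10 genes (8.78) and of the inducible targets (8.04) lie below it and the other 3 above.

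The cell type was checked against lists of marker genes. A promoter peak was present at 11 of 12 fibroblast markers (median fold 5.96), all but Postn, and at 2 of 8 blood markers (Spi1 3.22 and Lyz2 4.39) and 1 of 6 epithelial markers (Grhl2 5.40). Of the endothelial markers 3 of 5 had one, Cdh5 at 12.8, Pecam1 at 8.40 and Tek at 3.58. Among all coding genes the share was 53.7%, so the endothelial share of 60% was close to it. The fibroblast median fold was below the 9.86 of coding genes with a promoter peak. Cdh5 was above every fibroblast marker, of which the highest had 10.5. Blood markers such as Ptprc and Cd3e had none. Rel, best known from lymphocytes, had a promoter fold of 10.6 in this fibroblast line, above the median of coding genes with a promoter peak. Its interval (8.53 to 12.98) includes that median.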

How the data were processed

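The authors aligned paired-end ATAC-seq reads of 1 library to mm10 with STAR, kept unique alignments, discarded duplicates (Picard) and ran MACS2 on whole fragments to call peaks; the submitters' processing notes give STAR 2.5.3a and MACS2 2.1.1.20160309. No shift for the Tn5 cut is described. Removal of blacklisted and input regions is described for ChIP-seq, to which the ATAC-seq methods refer. The authors deposited for each peak a fold enrichment (a ratio of observed to expected fragments at the summit, each with 1 added), a −log10 p and a −log10 q, a score and a summit offset. The deposited score was used only to identify the columns. The lowest deposited −log10 q was 1.30.

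Fragments at each summit were solved from fold and −log10 p, for 63435 peaks. The number of reads of the library is not given in the list. Peaks were assigned by interval to every GENCODE M21 transcript start (within 1 kb), then to the gene body, then to flanks of 25 kb. Motifs were searched on both strands in GRCm38.p6. The scripts were tested on simulated peaks. The software was pysam 0.24.0, SciPy 1.17.1, matplotlib 3.10.9, pandas 2.3.3 and NumPy 2.4.6 under Python 3.11.15.

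The 10 genes, the lists and the alternatives were chosen with earlier results of these data known. Named were the 10 genes with their strongest peaks, the 2 highest genes of each list and up to 4 without a promoter peak, and the promoters and summit windows with a κB consensus match; the 30-base sites, the interval comparison, the κB shares of the lists and of peaks of like width, and further genes or peaks named in the text were added after their values were seen. Samples overexpressing a TF or rtTA3G alone were not analysed here.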

Additional observations from a re-analysis of the deposited data

How the results depend on the processing

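Values were recomputed with other thresholds, distances and windows. Counts and medians were taken as changed beyond 1.5 times, shares beyond their 95% Wilson interval. All 10 genes kept a promoter peak under each alternative, except Bcl3 when a peak had to overlap the TSS or when only basic coding transcripts were used. Of the summary values recomputed, 34 stayed within those limits and 14 did not. The share of coding genes with a promoter peak was 52.0% with a −log10 q of at least 5, 48.8% with a fold of at least 5, 48.7% when the peak had to overlap the TSS, 52.0% within 500 bp, 56.5% within 2 kb, 51.3% with basic coding transcripts and 53.0% by summit. With a fold of at least 5, the 10 genes had 5 body and 18 flank peaks. Flanks of 10 kb held 12 peaks and flanks of 50 kb 71, by their length. The share of the 55 peaks with a κB consensus match was 7.27% within 50 bp of the summit, against 1.93% of the whole list. For the stricter form in whole peaks it was 5.45% against 0.624%. Both shares were lower than in the main count. The first searched fewer bases and the second a rarer sequence, and how much of the drop these account for was not tested. The share with the AP-1 consensus was 14.5% within 50 bp, against 21.7%. Of the ranks of the 10 genes, when taken by −log10 q, only the percentile of Nfkb2 changed by more than 1.5 times, to 58.8.

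No paired analysis was possible because the peaks come from a single parental library. A fold rests on 12 to 103 fragments at these summits, and of a gene without a peak it can be said only that no accessible region was detectable at this depth. How often a second library would give the same peaks was not measured.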

Other observations

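Among other inhibitors of the pathway, the atypical IκB genes differed from each other in the same library. Nfkbiz, which encodes the nuclear protein IκBζ, had a promoter fold of 12.6 (−log10 q 80.5) and 6 flank peaks, whereas Nfkbid, which encodes IκBNS, had 3.16 (−log10 q 2.70) and no flank peak. Zc3h12a, the RNase Regnase-1, had 2 promoter peaks with a strongest fold of 7.41. Otulin and N4bp1 had the most gene-body peaks of that list, at 9 and 5. These genes were picked after their values were seen.

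Within the receptors, Tlr4, the receptor of lipopolysaccharide, had a promoter fold of 14.1 with a −log10 q of 103 and 4 body and 8 flank peaks, and Tlr2 had 6.62 with a −log10 q of 19.7. Tlr5, which recognises flagellin, had no promoter or body peak but 5 flank peaks. Tnf, without a promoter peak, had 4 flank peaks, and Il1b had no peak of any class. Ccl2, a chemokine gene of fibroblasts, had a promoter fold of 5.47 and 8 flank peaks. These too were chosen after their values were seen.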
